A study of Mus musculus with 8 samples.

Results

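Hepcidin and 3 of the genes that regulate it in the liver were followed in mouse livers treated with an inhibitor of a microRNA. So were main carriers of iron into and out of cells, enzymes of heme and its scavenger. The genes were taken by name: Hamp, Bmp6, Hfe, Tfr2, Tfrc, Slc39a14, Slc40a1, Alas1, Hpx and Hmox1. All 10 had a probe set of their own on the array, among 30627 genes in all, and each had exactly 1 such probe set, so that no choice between probe sets was needed. The treated livers came from 4 male C57BL/6 mice on a high fat diet for 13 weeks that then received 5 injections of anti-miR-128-3p into the peritoneal cavity. The control livers came from 4 male C57BL/6 mice on the same diet, given a control injection that 1 label calls vehicle and others call control. The protocol text speaks of injecting miR-128-3p, whereas titles and design name its inhibitor, and the groups follow the titles. Every animal, controls included, was on the diet, so no liver shows the state without it. The numbered titles were read as 1 mouse each, and p-values measure the spread between these samples.

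Hepcidin, the product of Hamp, is a peptide hormone that hepatocytes secrete and that makes cells take in and degrade ferroportin, the only known iron exporter, so that less iron enters plasma. When iron is plentiful, BMP6 from sinusoidal endothelial cells, together with HFE and transferrin receptor 2 on hepatocytes, raises Hamp transcription through SMAD proteins. Interleukin 6 raises it through STAT3. Heme is made from glycine and succinyl-CoA by a chain that ALAS1 starts in liver, is held in plasma by hemopexin, and is opened by heme oxygenase 1, which frees its iron.

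The inhibitor is directed at miR-128-3p, shown here because it is the molecule the treatment acts on. Its mature sequence in RefSeq is the same from Mir128-1 (GRCm38.p6, chr1:128202404-128202424, plus strand) and from Mir128-2 (chr9:112118644-112118664, minus strand). Bases 2 to 8, the seed that pairs with targets, are in capitals.
mmu-miR-128-3p: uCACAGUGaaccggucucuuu

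The signals are log2 values, so that a difference of 1 is a factor of 2 in signal. The median signal over genes lay between 5.04 and 5.12 on the 8 arrays, and negative control probe sets had medians of 4.32 to 4.48. Arrays correlated with each other at r = 0.992 to 0.996 across genes. Hepatocyte markers were bright in every liver, with a mean over 8 genes of 12.78 to 12.94 in treated and 12.87 to 12.92 in control livers. Control liver 1 stood apart in neutrophil markers, with a mean signal over 8 genes of 6.35, against 4.32 to 4.68 in treated livers and 4.29 to 4.57 in the other controls. The differences of Hamp and Tfr2 are also given without it.

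None of the 10 genes passed the test between treated and control livers. Limma (moderated linear model, adjustment over all 30627 genes) called 0 of them at an adjusted p under 0.05, and also 0% of all genes. At an unadjusted p under 0.05 limma counted 0 of the 10, against 7.63% of all genes. Groups overlapped in all 10, whereas in 4.41% of all genes they did not (2.52% higher and 1.89% lower in treated livers). The members' exact two-sided permutation p-values over the 70 assignments of 4 against 4 ran from 0.114 to 0.857. Of the 10, 3 had the higher mean in treated livers and 7 the lower, with a median log2 difference of -0.11, beside a higher mean in 49% and a lower mean in 50.9% of all genes. Several of them varied widely among livers of the same group.

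**Figure D1:**
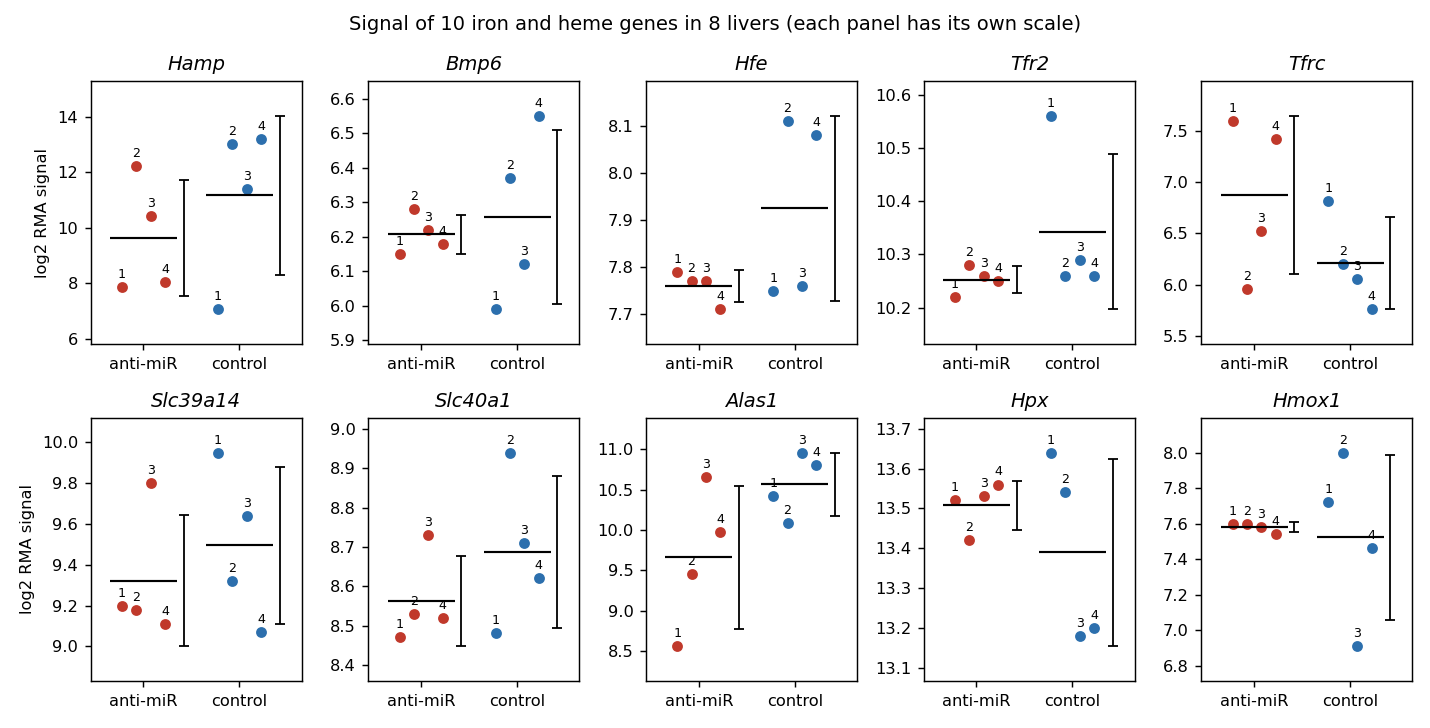
Log2 RMA signal (vertical axis, a separate scale in each panel) of the 10 genes in 4 anti-miR-128-3p livers (red) and 4 control livers (blue), numbered by replicate. Horizontal lines are group means and the bars beside them 1 SD (n = 4 each). Hamp runs from 7.05 to 13.20 and overlaps between the groups, while Tfr2, apart from control liver 1, lies within 10.22 to 10.29.

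Hamp, which encodes hepcidin, varied more among livers of the same group than any other gene tested. It was at 7.85, 12.22, 10.42 and 8.02 in treated livers 1 to 4, against 7.05, 13.01, 11.40 and 13.20 in control livers 1 to 4. The lowest and the highest liver were thus both controls, and they lay 6.15 log2 units, or 71.0-fold, apart. The within-group SD of Hamp was 2.50, the highest of the 30627 genes, beside a median of 0.10 over all genes. Means were 9.63 ± 2.09 in treated and 11.16 ± 2.86 in control livers (SD, n = 4 each). The difference of -1.54 ± 1.45 (log2 difference ± SE) had a 95% interval of -4.83 to 1.75, or 0.0352-fold to 3.37-fold, and a limma adjusted p of 0.869. This interval is wide enough to hold large differences in either direction. Without control liver 1 the difference was -2.91, with an unadjusted limma p of 0.0247 and an adjusted p of 0.552. The exact permutation p of that difference was 0.114. Without control liver 4 it was -0.86, and without treated liver 2 it was -2.40.

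**Figure D2:**
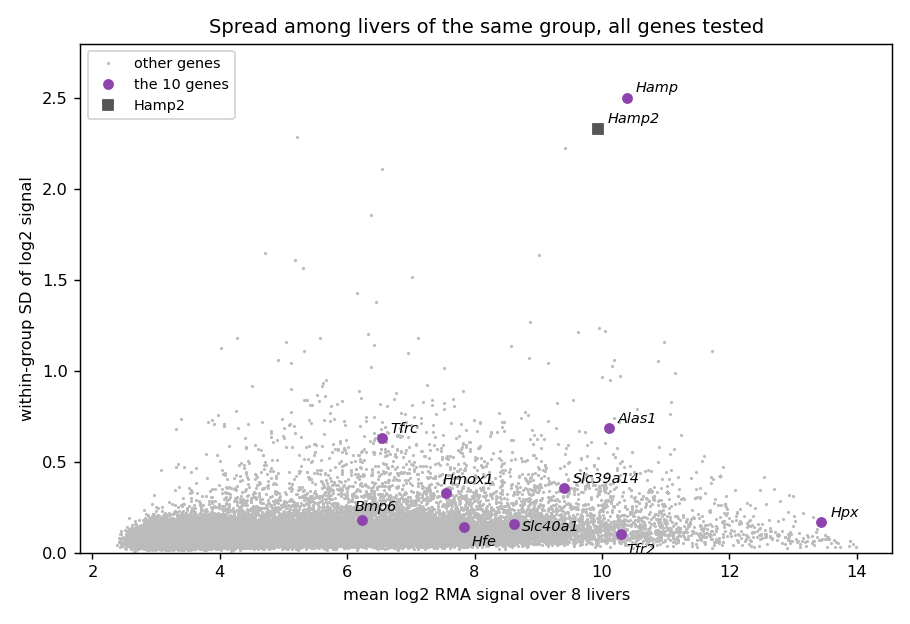
Within-group SD of the log2 signal (vertical axis) against the mean log2 signal over 8 livers (horizontal axis) for all genes tested (grey), the 10 genes (purple) and Hamp2 (dark square). Hamp, at an SD of 2.50, lies above every other gene, Alas1 and Tfrc lie at 0.69 and 0.63, and Tfr2 lies at 0.10.

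Hamp2, the neighbouring copy that C57BL/6 mice carry, had nearly the same profile. Its signal was 7.55, 11.60, 10.06 and 7.57 in treated livers 1 to 4, against 6.87, 12.43, 10.99 and 12.46 in control livers 1 to 4, and its correlation with Hamp over the 8 livers was r = 0.999. Hamp2 also had the next highest within-group SD, 2.33. The transcripts of the copies are close in sequence, and how far each probe set reads the other's RNA was not tested, so the 2 signals are not independent measurements. The 250 bases before each start site are shown because BMP and interleukin 6 signals are known to reach Hamp there. Capitals mark GGCGCC, the core of the BMP response element, and TTCNNNGAA, the STAT site, each searched on both strands and not overlapping each other. The sequences are from RefSeq (GRCm38.p6), minus strand, chr7:30944030-30944279 for Hamp and chr7:30924182-30924431 for Hamp2.
Hamp: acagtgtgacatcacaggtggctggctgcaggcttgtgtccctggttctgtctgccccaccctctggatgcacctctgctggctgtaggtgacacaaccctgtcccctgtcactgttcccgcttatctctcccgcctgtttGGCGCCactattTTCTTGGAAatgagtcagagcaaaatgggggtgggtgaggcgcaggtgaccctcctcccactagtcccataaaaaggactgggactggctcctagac
Hamp2: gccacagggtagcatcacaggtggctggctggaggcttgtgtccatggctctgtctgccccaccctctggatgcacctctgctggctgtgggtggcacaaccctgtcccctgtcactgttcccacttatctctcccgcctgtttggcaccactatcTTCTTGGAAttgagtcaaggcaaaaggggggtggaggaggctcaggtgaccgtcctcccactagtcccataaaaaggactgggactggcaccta

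Counting the start base as 0, the GGCGCC of Hamp lay at -109 to -104 and its STAT match, TTCTTGGAA, at -97 to -89. Hamp2 held the same STAT match at -94 to -86, and at the place of the GGCGCC it had GGCACC, the substitution G4A counted from 1 at the first base of the element. GGCGCC occurred in 11.9% of the 32851 promoter windows (250 bases before the start and 50 after) in the same RefSeq table and TTCNNNGAA in 8.30% of them. Windows were matched for 7 of the 10 genes. Beside Hamp, the window at the RefSeq start of Tfrc held GGCGCC and that of Alas1 held TTCNNNGAA. These are matches of letters and say nothing of binding in these livers.

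Across the 8 livers Hamp went with Bmp6 and against Tfrc. Correlations were computed for 8 gene pairs, with exact two-sided p-values over all pairings of the 8 livers and Benjamini-Hochberg adjustment over the 8. The members in these pairs were chosen with earlier results of these data known, which the adjustment does not cover. For Hamp and Bmp6 Pearson's r was 0.81 (exact p = 0.00816, adjusted p = 0.0326) and Spearman's rho 0.86 (exact p = 0.0107, adjusted p = 0.0429). With group means removed r was 0.81 (exact p = 0.0125). Without the 2 livers farthest from the median of Bmp6, control livers 1 and 4, r was 0.69 and no longer passed with the fewer livers (exact p = 0.142). Over all genes, 0.953% had an r with Hamp at least as high as that of Bmp6. Bmp2, another BMP ligand, was among them, with an r of 0.93 that 0.098% of genes reached. Its r was looked up afterwards and is described without a test. The Hamp signals left a gap between 8.02 and 10.42, with 3 livers below it and 5 above, too few on either side for an r of their own.

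**Figure D3:**
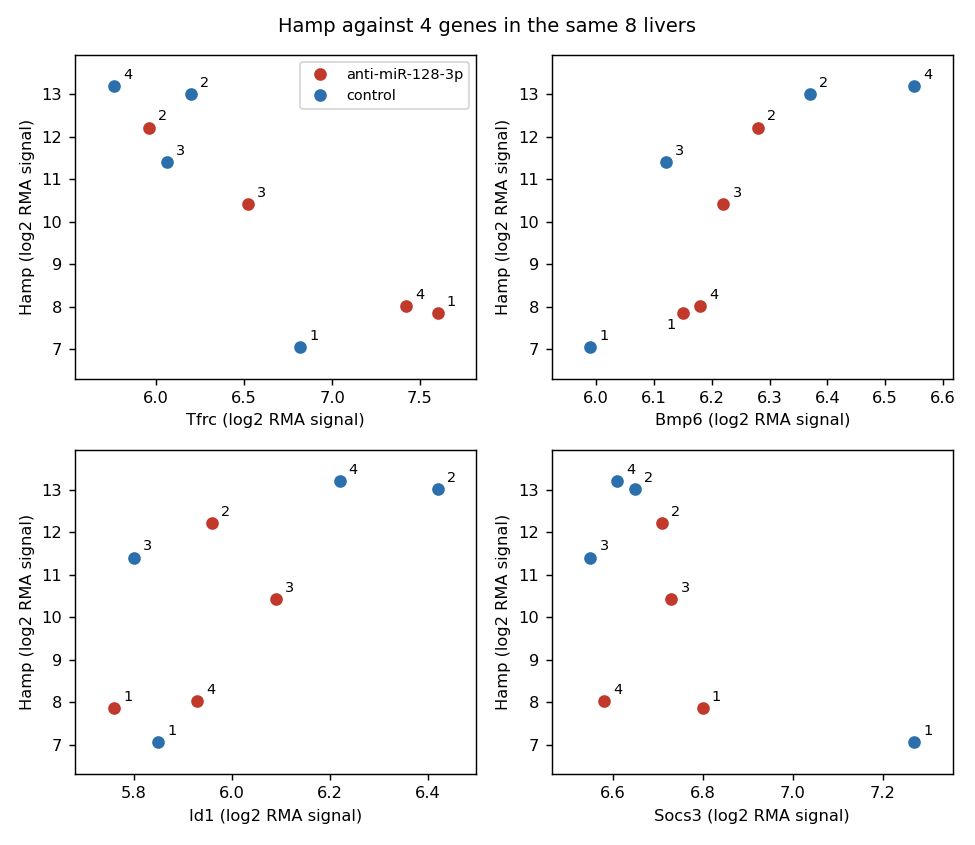
Hamp (vertical axes, log2 RMA signal) against Tfrc, Bmp6, Id1 and Socs3 (horizontal axes, log2 RMA signal) in 4 anti-miR-128-3p livers (red) and 4 control livers (blue), numbered by replicate. Livers with the lowest Hamp, control liver 1 and treated livers 1 and 4, have Tfrc from 6.82 to 7.60, above the 5.76 to 6.52 of the other livers.

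Bmp6, the ligand, was at 6.15, 6.28, 6.22 and 6.18 in treated livers 1 to 4, against 5.99, 6.37, 6.12 and 6.55 in control livers 1 to 4. Its whole range, 0.56 log2 units or 1.48-fold, was thus narrow beside that of Hamp, and the lowest and the highest liver were the same controls as for Hamp. The group difference was -0.05 ± 0.11 (limma adjusted p = 0.971). Without control liver 4 it changed sign, to 0.05. Bmp6 comes mainly from sinusoidal endothelial cells, whose markers had a mean over 10 genes of 7.28 to 7.68 in treated and 7.35 to 7.83 in control livers. Of these markers, 9 of 10 had the lower mean in treated livers, and the median log2 difference was -0.20. In whole liver fewer cells of a type and less RNA per cell cannot be told apart, and the part of these markers in the Bmp6 signal was not tested.

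Genes that BMP and SMAD signalling is known to raise were followed in the same livers. Id1, an inhibitor of basic helix-loop-helix factors, correlated with Hamp at r = 0.69 (exact p = 0.0588, adjusted p = 0.136) and rho = 0.74 (exact p = 0.0458, adjusted p = 0.0917). With group means removed r was 0.65, and without its 2 farthest livers, control livers 2 and 4, it was 0.33. Smad7, an inhibitory SMAD, gave r = 0.61 (exact p = 0.0861, adjusted p = 0.138), 0.55 with group means removed, and 0.72 without treated liver 3 and control liver 2. Neither relation passed. Atoh8, a transcription factor that responds to iron through BMP signals and binds the Hamp promoter, was singled out after its values were seen, and is described without a test. It was at 7.01, 7.60, 7.03 and 6.76 in treated livers 1 to 4, against 6.78, 7.60, 7.27 and 7.54 in control livers 1 to 4. Its r with Hamp over these 8 livers was 0.94, reached by 0.0522% of genes. Id3, a relative of Id1, gave r = 0.68 with Hamp, and 0.65 with group means removed. Smad6, an inhibitory SMAD like Smad7, gave r = 0.07, and -0.22 with group means removed, so these genes did not all go with Hamp. The r values of Id3 and Smad6 were looked up afterwards and are described without a test. The likeness rule took the highest r over the 8 livers among genes with established names. By it, the 3 genes most like Hamp were Hamp2, Cyp2d9 (r = 0.974), a cytochrome P450, and Gstm2 (r = 0.970), a glutathione transferase. Cyp2d9 and Gstm2 each ranged over only 0.42 log2 units, beside 6.15 for Hamp, and r does not measure the size of change.

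Hfe, the protein mutated in classical hemochromatosis, was at 7.79, 7.77, 7.77 and 7.71 in treated livers 1 to 4, against 7.75, 8.11, 7.76 and 8.08 in control livers 1 to 4. All treated livers and control livers 1 and 3 lay within 7.71 to 7.79, and only control livers 2 and 4 were higher. The difference was -0.17 ± 0.09 (95% interval -0.37 to 0.04, limma adjusted p = 0.737). Tfr2, the transferrin receptor that senses iron on hepatocytes, was the steadiest of the 10. It was at 10.22, 10.28, 10.26 and 10.25 in treated livers 1 to 4, against 10.56, 10.26, 10.29 and 10.26 in control livers 1 to 4. Control liver 1, with the lowest Hamp, had the highest Tfr2. The difference was -0.09 ± 0.07 (limma adjusted p = 0.846), and -0.01 without control liver 1.

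In the list of hepcidin regulation 23 of 24 genes were measured. Of these, 19 had the lower and 4 the higher mean in treated livers, and their median log2 difference was -0.14 beside 0.00 over all genes. None passed the adjusted threshold. Below an unadjusted limma p of 0.05 there were 3 lower genes and 0 higher, beside 3.37% and 4.26% of all genes. Groups did not overlap in 1 of them, lower in treated livers, beside 1.89% of all genes. That gene was the BMP type II receptor gene Bmpr2, with a difference of -0.22 ± 0.06 (limma adjusted p = 0.444). The others were Id3 (-0.64 ± 0.27, adjusted p = 0.627), a relative of Id1, and Smad7 (-0.31 ± 0.13, adjusted p = 0.631). Id3 was at 5.49 to 5.70 in treated livers, against 5.75, 6.90, 5.64 and 6.69 in control livers 1 to 4, so that its difference came from control livers 2 and 4. Smad6, another inhibitory SMAD, differed by -0.14 ± 0.06 (limma adjusted p = 0.671).

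Targets of interleukin 6 signalling were followed in the same way. Socs3, a STAT3 target that limits the signal, correlated with Hamp at r = -0.60 (exact p = 0.0681, adjusted p = 0.136), at -0.70 with group means removed (exact p = 0.0435, not adjusted), and at -0.28 without control livers 1 and 3. Control liver 1, which had the lowest Hamp, had the highest Socs3, 7.27, and the highest Saa1, an acute phase protein, 12.85, against 10.86 to 11.25 in treated livers and 9.57 to 10.53 in the other controls. It also had the high neutrophil markers given above, and the part of these cells in its Hamp value was not tested. Of the 17 genes listed, 13 had the higher and 4 the lower mean in treated livers (median log2 difference 0.05). None passed. Il6st, the gp130 chain of the interleukin 6 receptor, was lower in each treated liver than in every control, as were 1.89% of all genes. The gap was small, with treated liver 3 and control liver 3 both at 10.03 when rounded. Its difference was -0.26 ± 0.07 (limma adjusted p = 0.346). It was the 1 gene of the list below an unadjusted limma p of 0.05, beside 3.37% of all genes lower and 4.26% higher. Saa3 differed by 0.33 ± 0.15 (adjusted p = 0.660), haptoglobin (Hp) by 0.24 ± 0.21 (adjusted p = 0.850) and Orm1 by 0.17 ± 0.20 (adjusted p = 0.906). Il6 itself was at 2.90 to 3.07, under the negative control probe sets. Looked up afterwards and described without a test, r with Hamp was -0.85 for Hp, -0.72 for Stat3, -0.71 for Orm1 and -0.68 for Saa1. An r as low as that of Hp was found for 1.57% of all genes. Of the listed genes, only Jak2 (0.57), Il6 (0.50) and Il6st (0.24) had a positive r with Hamp.

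Tfrc, the transferrin receptor by which most cells take up iron, has an mRNA that iron regulatory proteins stabilise when cellular iron is low. It was at 7.60, 5.96, 6.52 and 7.42 in treated livers 1 to 4, against 6.82, 6.20, 6.06 and 5.76 in control livers 1 to 4. Treated livers 1 and 4 were above every control liver, treated liver 2 was among the lower values, and the groups overlapped. The difference was 0.67 ± 0.37 (1.59-fold, 95% interval 0.890-fold to 2.83-fold, limma adjusted p = 0.741). It was 0.42 without treated liver 1 and 0.97 without treated liver 2 (limma adjusted p = 0.991 and 0.439). The order of livers was close to the reverse of that for Hamp. Pearson's r was -0.88 (exact p = 0.00623, adjusted p = 0.0326) and Spearman's rho -0.86 (exact p = 0.0107, adjusted p = 0.0429). With group means removed r was -0.88 (exact p = 0.00521), and without the 2 farthest livers, treated livers 1 and 4, it was -0.90 (exact p = 0.0139). An r with Hamp as low as that of Tfrc was found for 0.908% of all genes.

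Slc39a14, the ZIP14 carrier that takes up iron not bound to transferrin, was at 9.20, 9.18, 9.80 and 9.11 in treated livers 1 to 4, against 9.95, 9.32, 9.64 and 9.07 in control livers 1 to 4. Treated liver 3 stood above the other treated livers, and controls spread over most of the range. The difference was -0.17 ± 0.21 (limma adjusted p = 0.910), -0.33 without treated liver 3 and -0.02 without control liver 1. Slc40a1, which encodes the exporter ferroportin, was at 8.47, 8.53, 8.73 and 8.52 in treated livers 1 to 4, against 8.48, 8.94, 8.71 and 8.62 in control livers 1 to 4. Its difference was -0.12 ± 0.10 (95% interval -0.35 to 0.10, limma adjusted p = 0.842), and every liver lay within 1.38-fold of every other. Macrophages that recycle red cells carry much of the ferroportin in liver. Kupffer cell markers, with a mean over 11 genes of 7.53 to 8.72 in treated and 7.06 to 8.07 in control livers, had the higher mean in treated livers in 10 of 11 genes (median log2 difference 0.40). That median was 0.17 without control liver 3 and 0.66 without treated liver 2. The relation of Slc40a1 with the Kupffer cell gene Clec4f did not pass (r = -0.18, exact p = 0.683, adjusted p = 0.683), and the sign turned to 0.10 with group means removed and to 0.18 without treated liver 1 and control liver 3.

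Among 23 of 24 genes measured for iron uptake, export and storage, 16 had the lower and 7 the higher mean in treated livers, and the median log2 difference was -0.05. None passed the adjusted threshold. The gene with the smallest p was Slc39a8, the ZIP8 carrier related to Slc39a14. It was at 7.60, 7.71, 7.58 and 7.55 in treated livers 1 to 4, against 7.79, 7.92, 7.79 and 7.88 in control livers 1 to 4, and differed by -0.23 ± 0.05 (limma adjusted p = 0.267). It was the 1 gene of the list below an unadjusted p of 0.05 and the 1 gene whose groups did not overlap, beside 3.37% and 1.89% of all genes in that direction. Ncoa4, the receptor that sends ferritin to lysosomes, differed by -0.24 ± 0.12 (limma adjusted p = 0.711), the mitochondrial iron importer Slc25a37 by -0.22 ± 0.14 (adjusted p = 0.797) and the iron chaperone Pcbp1 by 0.12 ± 0.06 (adjusted p = 0.704). Fth1, the heavy chain of ferritin, which is regulated mainly in translation, stayed within 11.25 to 11.48. Slc11a2, the DMT1 carrier, whose mRNA can also carry an iron responsive element, was singled out after its values were seen. It was at 8.30, 7.67, 7.87 and 8.21 in treated livers 1 to 4, against 8.13, 7.93, 7.74 and 7.85 in control livers 1 to 4. It was highest in the same 3 livers as Tfrc.

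**Figure D4:**
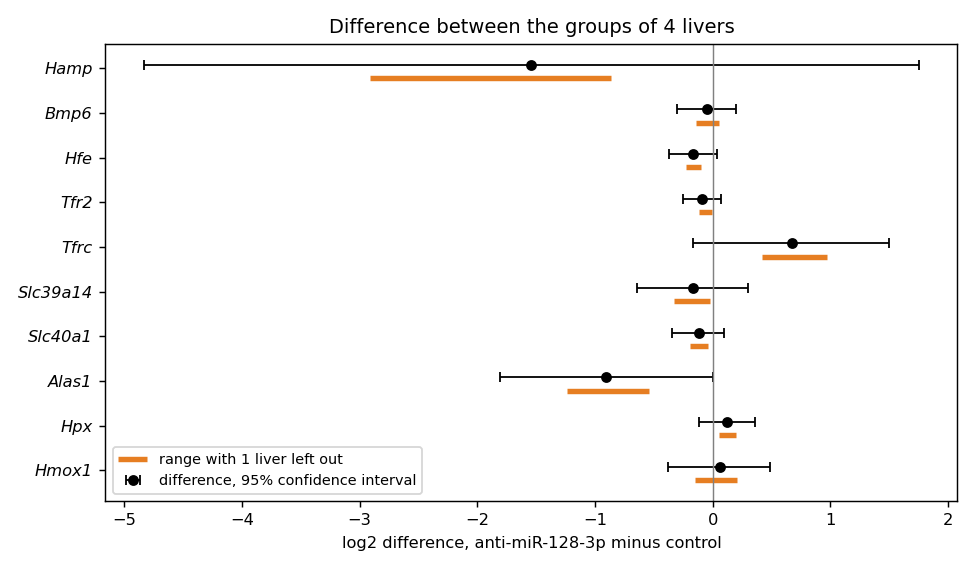
Log2 difference, anti-miR-128-3p minus control (horizontal axis), of each of the 10 genes with its limma 95% confidence interval (black, 4 livers a group) and the range of the difference with 1 liver left out at a time (orange). Every interval includes or touches 0. Alas1 reaches from -1.81 to 0.00 and Hamp from -4.83 to 1.75.

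Alas1, the rate-limiting enzyme of heme synthesis in liver, came closest to the threshold of the 10. It was at 8.56, 9.45, 10.66 and 9.97 in treated livers 1 to 4, against 10.42, 10.08, 10.95 and 10.81 in control livers 1 to 4. Of the 4 treated livers, 3 were below every control, and treated liver 3 lay among the controls. Means were 9.66 ± 0.89 in treated and 10.57 ± 0.39 in control livers (SD, n = 4 each). The difference of -0.91 ± 0.40 was 0.534-fold, with a 95% interval of -1.81 to 0.00. It did not pass, with a limma unadjusted p of 0.05005, an adjusted p of 0.655 and a two-sided exact permutation p of 0.114. Without treated liver 1 the difference was -0.54, and without treated liver 3 it was -1.24 (adjusted p = 0.960 and 0.381). Alas1 also varied within groups, with an SD of 0.69 that ranked 140 among all genes.

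In liver Alas1 is induced in fasting through the coactivator PGC-1alpha and by drugs through nuclear receptors. Ppargc1a, which encodes PGC-1alpha, was at 7.16, 7.43, 8.06 and 6.96 in treated livers 1 to 4, against 7.24, 7.05, 7.21 and 7.30 in control livers 1 to 4. It gave r = 0.26 with Alas1 (exact p = 0.501, adjusted p = 0.572), 0.61 with group means removed (exact p = 0.0996), and 0.01 without treated livers 3 and 4. Of the 8 measured genes of the drug response list, 7 had the lower mean in treated livers, and none passed. The median log2 difference was -0.19, ranged from -0.30 to -0.10 with 1 liver left out, and was -0.07 with dim genes (under the median signal) left out. The pregnane X receptor gene Nr1i2 differed by -0.33 ± 0.12 (limma adjusted p = 0.571) and Cyp2b10 by -0.45 ± 0.25 (adjusted p = 0.740). Cyp2b10 was at 4.41 to 5.68, in some livers near the negative control probe sets. Cyp3a13 differed by -0.32 ± 0.30 (adjusted p = 0.871) and Rxra by -0.05 ± 0.06 (adjusted p = 0.913). The genes most like Alas1 over the 8 livers were Med1 (r = 0.972), Aass (r = 0.957) and Lims2 (r = 0.949). Med1 is a subunit of the mediator complex and Aass an enzyme of lysine breakdown. Med1, Aass and Lims2 ranged over 0.31, 0.75 and 0.90 log2 units, beside 2.39 for Alas1, and r does not measure the size of change.

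The steps of heme synthesis after Alas1 did not pass either. Of the 14 of 15 list genes measured, 8 had the lower and 6 the higher mean in treated livers, and the median log2 difference was -0.03, and none passed. Both genes below an unadjusted p of 0.05 were lower in treated livers, as were 3.37% of all genes, while 4.26% of all genes were higher. Cpox, the coproporphyrinogen oxidase, was at 9.63, 9.86, 9.60 and 10.15 in treated livers 1 to 4, against 10.29, 10.05, 10.13 and 9.94 in control livers 1 to 4 (-0.30 ± 0.13, limma adjusted p = 0.628). Abcb6, a porphyrin transporter, differed by -0.23 ± 0.10 (adjusted p = 0.629). Ppox, the next enzyme after Cpox, differed by -0.12 ± 0.06 (adjusted p = 0.693) and Tmem14c, a mitochondrial porphyrin carrier, by 0.18 ± 0.11 (adjusted p = 0.778).

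Hpx, which encodes the plasma heme carrier hemopexin, was at 13.52, 13.42, 13.53 and 13.56 in treated livers 1 to 4, against 13.64, 13.54, 13.18 and 13.20 in control livers 1 to 4. Treated livers lay close together inside the range of the controls, of which livers 3 and 4 were lower. The difference was 0.12 ± 0.10 (limma adjusted p = 0.856). Hmox1, heme oxygenase 1, was at 7.60, 7.60, 7.58 and 7.54 in treated livers 1 to 4, against 7.72, 8.0, 6.91 and 7.46 in control livers 1 to 4. The treated livers again lay within the controls' range. The difference was 0.06 ± 0.19 (95% interval -0.38 to 0.49, limma adjusted p = 0.979), and it turned to -0.15 without control liver 3, which had the lowest Hmox1 and the lowest Kupffer cell markers, 7.06. Hmox1 is high in macrophages. Its r with Clec4f was 0.36 (exact p = 0.405, adjusted p = 0.540), 0.38 with group means removed, and -0.38 without treated liver 1 and control liver 3. The part of macrophages in the Hmox1 signal was not tested.

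**Figure D5:**
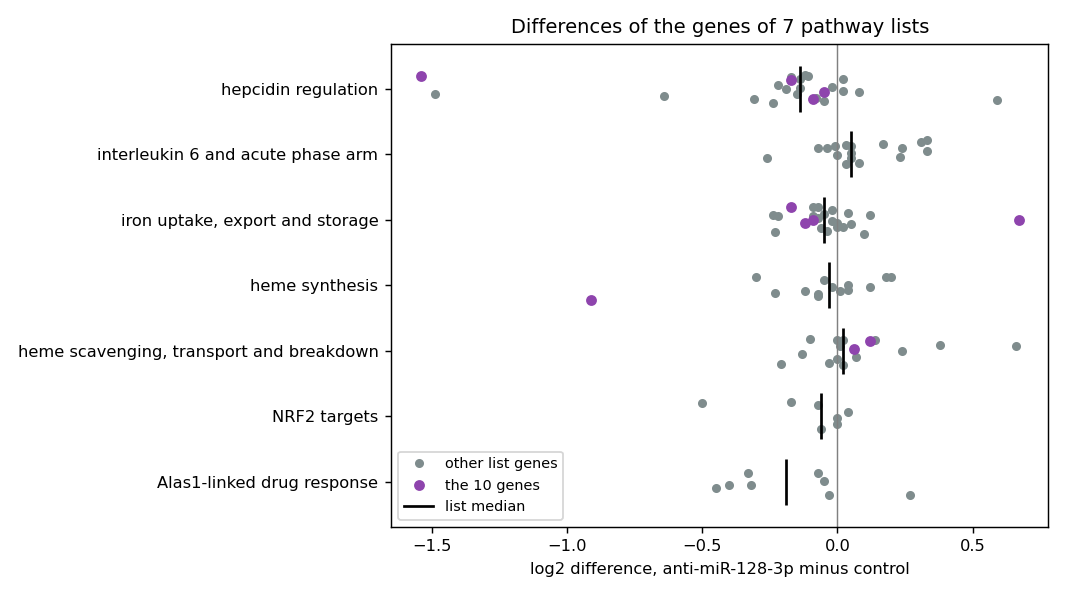
Log2 difference, anti-miR-128-3p minus control (horizontal axis), of each measured gene of 7 pathway lists (rows), with the 10 genes in purple, other list genes in grey and the list median as a black line; vertical scatter within a row has no meaning. The medians run from -0.19 for the drug response list to 0.05 for the interleukin 6 list, and Hamp, Hamp2 and Alas1 lie far to the left.

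Of the 16 of 18 genes measured for scavenging, transport and breakdown of heme, 11 had the higher and 5 the lower mean in treated livers (median log2 difference 0.02), and none passed. Slc48a1, which brings heme out of lysosomes, differed by -0.21 ± 0.07 (limma adjusted p = 0.546), and Blvra, a biliverdin reductase that acts after heme oxygenase, by 0.14 ± 0.06 (adjusted p = 0.631). Spic, a transcription factor of macrophages that recycle iron, differed by 0.38 ± 0.18 (adjusted p = 0.689). Its signal was only 4.04 to 5.20, in most livers near the negative control probe sets. Cd163, the macrophage receptor for hemoglobin bound to haptoglobin, was at 6.96, 5.78, 7.39 and 7.66 in treated livers 1 to 4, against 6.63, 6.23, 6.18 and 6.10 in control livers 1 to 4 (0.66 ± 0.35, adjusted p = 0.728). Spic and Cd163 are macrophage genes, and the Kupffer cell markers given above were also higher in mean in treated livers. Their part in these differences was not tested. NRF2 targets, which share the antioxidant regulator of Hmox1, had 5 lower and 2 higher means among 7 of 9 genes measured (median log2 difference -0.06). The malic enzyme gene Me1 differed by -0.50 ± 0.23 (limma adjusted p = 0.692) and Gpx2 by -0.07 ± 0.05 (adjusted p = 0.808). Gpx2 was at 4.68 to 4.85, little above the negative control probe sets. Gclc differed by -0.17 ± 0.16 (adjusted p = 0.872) and Srxn1 by 0.04 ± 0.06 (adjusted p = 0.922).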

How the data were processed

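Per the labels' protocols, TRIzol-extracted liver RNA was made into biotinylated cRNA for Affymetrix arrays. The authors deposited log2 signals made with RMA, per the submitters' processing notes. Its software version and settings were not stated there. Of 72688 rows, 6732 control rows were left out. Probe sets that the platform annotation gives to exactly 1 gene (31080) were named through RefSeq (GRCm38.p6), and the one with the highest mean over 8 arrays was kept per gene, giving 30627 genes. No filter on dim genes was applied.

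Groups were compared with limma 3.58.1 in R 4.3.3 (lmFit, eBayes, two-sided, Benjamini-Hochberg over all genes). Exact permutation tests and figures used Python 3.11.15, scipy 1.17.1 and matplotlib 3.10.9. The limma step was tested on simulated data. Members and lists were chosen with earlier results of these data known. Named from each pathway list were up to 4 non-members with the smallest limma p, the 3 genes most like Hamp and Alas1, and the genes of 8 pairs. Alternatives were other moderation, array weights, a filter, averaged probe sets, quantile normalization, centring, the replicate number as a block and each liver left out. No member has several probe sets, so splitting them was not run. Same-numbered livers of the groups deviated with correlations of -0.123 to -0.020 over all genes, which gave no sign of a pairing by number. A pairing that affects few genes could not be seen this way. Arrays carry no counts, and the 4 livers a group limit the precision.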

Additional observations from a re-analysis of the deposited data

Results flagged for a closer look

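Within a group of 4 livers, 5 of 124 sets of values held a liver whose gap to its nearest neighbour exceeded the 95% limit of Dixon's test, as a share of the whole range, beside about 1 in 20 by chance. Tfr2 was at 10.56 in control liver 1, with 10.26 to 10.29 in the other controls. Socs3 was at 7.27 in the same liver (6.55 to 6.65 in the others), and its neutrophil marker score, the mean of gene-centred signals, was 1.62 (-0.44 to -0.15 in the others). Smad7 was at 7.04 in control liver 2, with 6.45 to 6.53 in the other controls. Slc39a14 was at 9.80 in treated liver 3, with 9.11 to 9.20 in the other treated livers. Hamp, despite its wide scatter, held no gap past this limit in either group.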

How the results depend on the processing

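Of 150 differences of the 10 genes under alternatives, 148 kept their direction and none reached an adjusted p under 0.05. The exceptions in direction came with 1 liver left out, where Bmp6 ranged from -0.14 to 0.05 and Hmox1 from -0.15 to 0.21, in limma and in the exact test alike. Limma's count of called genes ranged from 0 to 1 with 1 liver left out (1 without control liver 4, Irgm1, no member) and was 0 under every other alternative, an adjusted p under 0.1 included. With the replicate number as a block the count was 0, and the smallest adjusted p of the 10 genes was 0.548, for Alas1. The block thus changed no adjusted call. The unadjusted limma p of Alas1 was 0.0123 with the block, 0.0403 with array weights and 0.0445 with quantile normalization. It was 0.0547 with other moderation, and ranged from 0.00607 to 0.116 with 1 liver left out. Hamp, Hfe and Tfrc also fell under 0.05 without certain livers. The count of 0 of the 10 at an unadjusted p under 0.05 therefore depends on the setting. List medians moved by more than the spread between replicates in 2 of 210 alternatives, each with 1 liver left out. For iron uptake, export and storage they ranged from -0.05 to -0.01, and for erythroid markers from -0.07 to 0.03. The other medians moved by less than that spread, yet with 1 liver left out hepcidin regulation ranged from -0.18 to -0.08. The interleukin 6 list ranged from -0.03 to 0.16, NRF2 targets from -0.10 to 0.01 and neutrophil markers from -0.53 to 0.08. The signs of these last lists, like that of erythroid markers, are not settled. Without the 2 livers farthest from the median, the relation of Hamp with Bmp6 weakened to 0.69, that of Hmox1 with Clec4f turned to -0.38 and that of Slc40a1 with Clec4f turned to 0.18, with fewer livers in each. With 3 against 4 livers the exact test cannot go below 0.0571.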

Other observations

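Alas2, the erythroid counterpart of Alas1, was above the negative control probe sets in every liver. It was at 9.30, 9.85, 9.12 and 9.35 in treated livers 1 to 4, against 8.87, 9.67, 9.29 and 9.65 in control livers 1 to 4. The other 4 erythroid markers measured, of 11 listed, lay between 3.04 and 5.90, levels of different probe sets that are not compared here. Its group difference did not pass (0.04 ± 0.20, limma adjusted p = 0.988). Alas2 was singled out after its values were seen, and its r with Hamp over the 8 livers was 0.77, beside 0.35 for Alas1. The other 4 erythroid markers went the other way, with r of -0.69 for Slc4a1, -0.73 for Klf1, -0.56 for Epor and -0.39 for Rhag. Rhag, however, was at 3.04 to 3.36, under the negative control probe sets. Slc4a1, Klf1 and Epor ranged over 0.54, 0.39 and 0.28 log2 units, beside 0.98 for Alas2.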
